A study of Sus scrofa with 6 samples.

Results

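The vesicle traffic and secretory pathway genes described here are those whose symbol in the platform's probe-to-gene table begins with RAB, ARF, SEC, VPS, SNX, STX or VAMP and a digit, or with COPA, COPB, COPE, COPG, COPZ, TMED, TRAPPC or SAR1. The rule took 125 of the 6765 genes with a named probe set on the array, with 197 probe sets in all, and it used names only, not signals. Their transcripts were measured on Affymetrix porcine expression arrays in untreated cultures of OBGF400 and of PK15. OBGF400 is described by the submitters as a neuroblast line from pig olfactory bulb. PK15 is a long-established kidney line of the same species, described by them as epithelial and not neuronal. Each line had 3 arrays, and each array held RNA pooled from several of the 9 cultures grown per line. OBGF400 was kept in DMEM/F12/HAM and PK15 in minimum essential medium with amphotericin B, both with 10% bovine calf serum, penicillin, streptomycin and gentamicin, so medium, line and any hybridization batch cannot be told apart. PK15 served the study as a somatic cell comparison from which genes preferred by the neuroblasts could be read. Each line is 1 line, so a p-value measures the spread between pools of that line and not between animals.

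Secreted and membrane proteins enter the endoplasmic reticulum (ER) through the SEC61 channel and leave it in vesicles built by the COPII coat on the small GTPase SAR1. COPI coats, recruited by ARF GTPases, return material from the Golgi, while RAB GTPases, tethers and SNARE proteins decide where a vesicle docks and fuses. In endosomes, sorting nexins, retromer and the ESCRT complexes choose between recycling and degradation. Epithelial cells are known for routing cargo separately to apical and basolateral surfaces, and neurons for moving it along long processes and releasing it on demand.

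Of the 125 genes, 30 were higher and 47 lower in OBGF400 than in PK15 while the other 48 missed the threshold (limma with Benjamini-Hochberg adjustment over all 6765 genes, adjusted p below 0.05). That is 61.6% of them, against 60.8% of all genes called, with 23.9% of all genes higher and 36.8% lower, so the share called was close to the background. Without genes at the table's lower limit in both lines it was below the background, at 64.2% against 71.9% of all genes. Called differences of at least 2-fold were found for 8 genes higher in OBGF400 and 21 lower, together 23.2%, against 35.7% of all genes (13.8% higher and 22.0% lower). Called differences of at least 8-fold were found for 3 genes, or 2.4%, against 10.3% of all genes. Among genes with a mean log2 signal above 8 in both lines, 17.9% of 78 pathway genes and 32.6% of 2720 genes overall were called and at least 2-fold apart. These shares describe the lists, and no test of the list was made. No overlap between the arrays of OBGF400 and those of PK15 was seen for 84 of the 125 genes (67.2%), against 66.9% of all genes. Without the genes at the lower limit in both lines, these shares were 70.0% and 79.1%. The median difference, always OBGF400 minus PK15 on the log2 scale, was -0.09, against -0.002 over all genes.

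The direction of small differences depended on how the arrays were scaled. The bacterial hybridization controls, added in equal amounts to every labelled sample by the platform's design, read lower in OBGF400 by 0.82 and the poly-A controls dap and thr read higher by 0.85, whereas the poly-A controls lys and phe differed by -0.29 and -0.11. Setting the arrays level on the hybridization controls (the hybridization scale) moved the median difference of all genes to 0.82, and setting them level on dap and thr (the poly-A scale) moved it to -0.86. Of the 125 genes, 82 were higher and 16 lower on the hybridization scale, but 5 higher and 102 lower on the poly-A scale. These counts include 6 genes whose means in both lines lay within 0.1 of the table's lower limit of 2.13 (the floor), RAB27B, SNX30, SEC31B, VPS53, VPS13D and COPB2, and for which a scaled difference is only the added constant. Without them 76 were higher and 16 lower on the hybridization scale and 5 higher and 96 lower on the poly-A scale. Counts on these scales leave these 6 genes out from here on, except in the closing section on processing. SNX8, read at 4.68 on all 6 arrays, stays in the counts, although its scaled difference is also only the added constant. On both scales the spread of the control readings enters every gene, so a call there does not measure the gene's own spread between pools alone. A difference larger than these shifts keeps its sign on both scales. As deposited and on both of these scales 21 genes were called with 1 sign, 5 higher and 16 lower. That is 16.8% against 29.8% of all genes (11.2% higher, 18.6% lower). The 5 higher genes were VPS39, RAB18, SEC23A, COPZ2 and RAB23. The 16 lower ones were RAB3IP, RAB19, TRAPPC9, RAB8A, SNX10, VPS13C, SNX24, VPS45, STX4, VPS36, TRAPPC2L, RAB9A, RAB13, VPS4A, SEC11C and RAB28. The results below give most room to these genes.

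**Figure D1:**
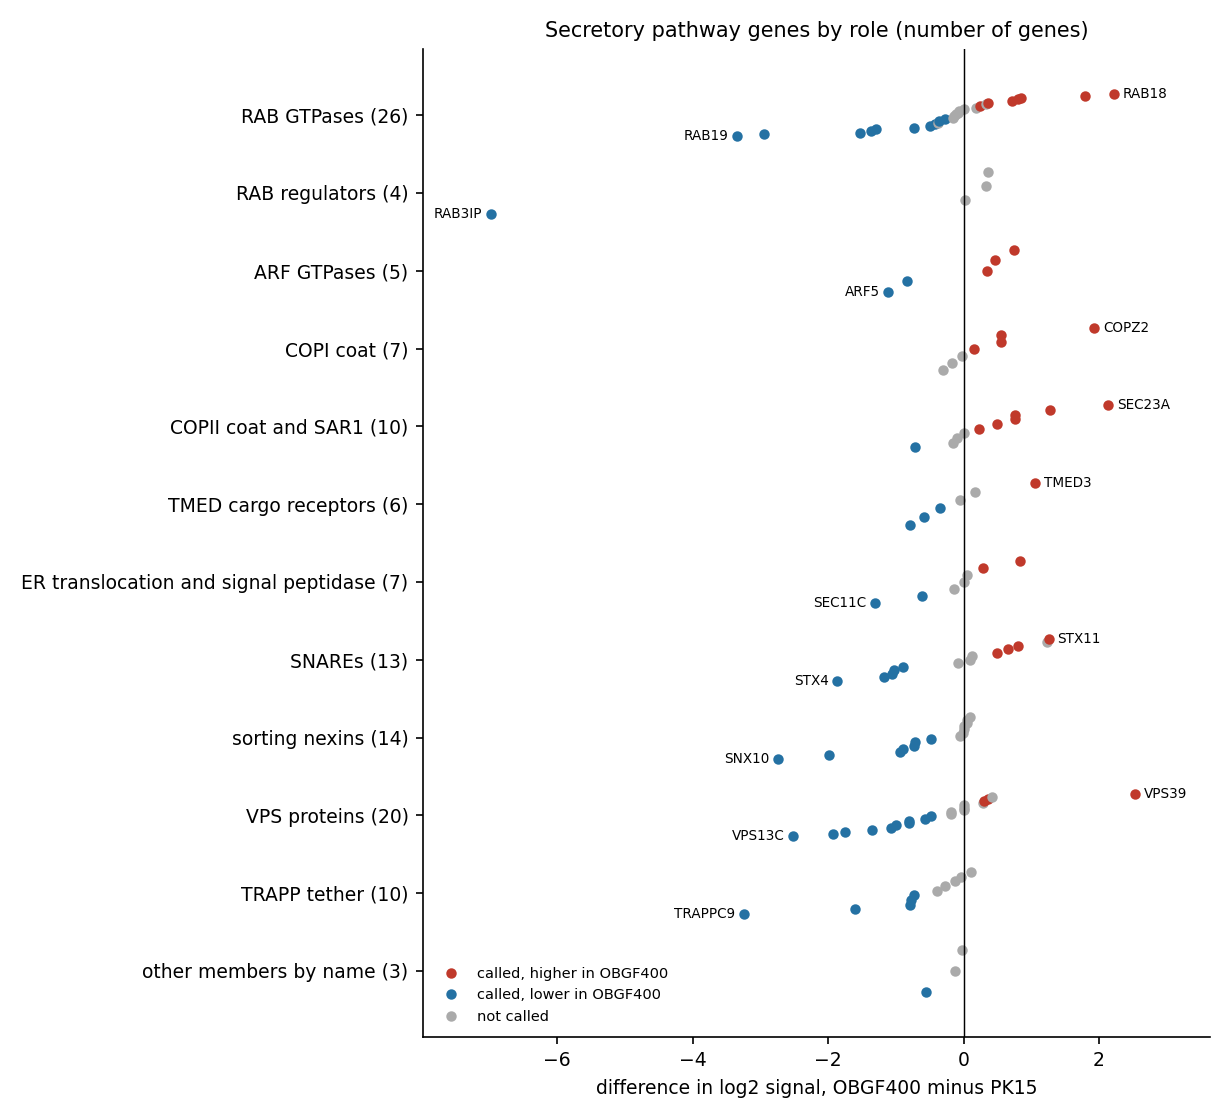
Difference in log2 signal (OBGF400 minus PK15) of each of the 125 genes, 1 point per gene, in rows by role, with red for genes called higher in OBGF400, blue for those called lower and grey for those not called. In the deposited values shown, the sorting nexin and TRAPP rows hold no red point, and RAB3IP stands alone at -6.98. On the hybridization scale 6 and 5 of the nexin and TRAPP genes above the floor would be red, SNX8 by the added constant alone.

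Markers of cell identity separated the lines. All 8 measured epithelial markers had lower signals in OBGF400, 7 of them called, and their summed linear signal was 5.49 to 5.62 on the log2 scale in OBGF400, against 16.30 to 16.34 in PK15. The 7 measured fibroblast and mesenchymal markers summed to 14.65 to 14.75 in OBGF400, against 5.37 to 5.44 in PK15, with 6 called higher. The 5 smooth muscle markers summed to 16.86 to 16.93 in OBGF400 and 9.10 to 9.88 in PK15. Of 8 neuron markers, UCHL1 and MAP2 were higher in OBGF400 and the other 6, among them SNAP25, SYT1, SYN1, GAP43 and STMN2, were at the floor (within 0.1 of it on every array) in both lines. Of the 11 listed neuroblast markers 3 were measured, with NCAM1 higher (6.20), STMN1 lower (-1.58) and DLX5 at the floor. Leukocyte markers summed to 6.19 to 6.52 in OBGF400 and 11.84 to 11.94 in PK15, and astrocyte markers to 5.18 to 6.51 in OBGF400 and 7.56 to 8.08 in PK15. Of the 4 astrocyte markers only GFAP was called, lower at -5.10, with 1 of its 4 probe sets called. ALDH1L1 (1.79) and S100B (0.31) read higher in OBGF400 without a call, and SLC1A3 was at the floor in both lines. Of the 5 leukocyte markers, LAPTM5, AIF1 and SPI1 were lower in OBGF400 (-8.75, -8.58 and -4.02) and kept their calls on both scales. CD14 was higher (1.03), a call lost without OBGF400 array 1, and PTPRC was at the floor in both lines. The part of these markers' cell types in the results below was not tested, and in RNA of whole cultures fewer cells of a type and less RNA per cell cannot be told apart.

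RAB GTPases were measured for 26 genes, of which 7 rose, 10 fell and 9 missed the threshold, around a median difference of -0.13. Among the falls is RAB22A (-0.36), which was not called in the fit over all probe sets. The hybridization scale gave 18 rises and 5 falls, and the poly-A scale 2 rises and 20 falls. The largest rise was that of RAB18, a GTPase of the ER and of lipid droplets. Its log2 signal was 12.79, 12.72 and 12.77 on the OBGF400 arrays, against 10.51, 10.49 and 10.60 on the PK15 arrays. The lines did not overlap, and the difference was 2.23 ± 0.04 (SE, n = 3 each, adjusted p = 3.89e-06), a 4.68-fold higher signal in OBGF400. RAB23, known in mice as a negative regulator of Hedgehog signalling, read 9.74, 9.85 and 9.68 in OBGF400, against 8.08, 7.88 and 7.94 in PK15. Its difference was 1.79 ± 0.07 (SE, n = 3 each, adjusted p = 5.54e-05), and all 3 of its probe sets were called higher, by 1.53 to 2.33.

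RAB18 is loaded with GTP in human cells by the complex of RAB3GAP1 and RAB3GAP2 and switched off by TBC1D20, and loss of any of these 4 genes causes the same human eye and brain syndrome. TBC1D20, which is not among the 125 genes, was at 8.94, 9.07 and 8.92 in OBGF400 and at 5.77, 6.57 and 6.51 in PK15. It was therefore higher in OBGF400 on every array, by 2.70 ± 0.24 (SE, n = 3 each, adjusted p = 0.000662), with both of its probe sets called. In the exchange complex neither gene was called with the probe set used here, RAB3GAP1 differing by 0.36 ± 0.14 (adjusted p = 0.0782) and RAB3GAP2 by 0.02 ± 0.01 (SE, n = 3 each, adjusted p = 0.195). RAB3GAP2 was at 10.84, 10.82 and 10.82 in OBGF400 and 10.80, 10.81 and 10.82 in PK15, but a second probe set, at 11.09, 11.04 and 11.11 in OBGF400 and 10.04, 9.67 and 9.80 in PK15, was called higher by 1.24, and the last was at the floor. On the hybridization and poly-A scales RAB18 stood at 3.05 and 1.37 and TBC1D20 at 3.52 and 1.84, so both kept their direction.

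The largest difference among the 125 genes was that of RAB3IP, which encodes Rabin8, the exchange factor that activates RAB8. RAB3IP read 2.32, 2.32 and 2.34 in OBGF400, against 9.55, 9.36 and 9.01 in PK15. OBGF400 thus lay just above the floor and PK15 far from it. The difference was -6.98 ± 0.15 (SE, n = 3 each, adjusted p = 7.97e-06), or -4.17 after 32 was added to the linear values to damp differences near the floor. RAB8A itself, a GTPase of traffic from the Golgi and recycling endosomes to the plasma membrane and the primary cilium, read 2.78, 2.99 and 2.94 in OBGF400, against 5.78, 5.53 and 6.22 in PK15. It was lower in OBGF400 by both of its probe sets, with a difference of -2.94 ± 0.20 (SE, n = 3 each, adjusted p = 0.000257), which became -1.18 with 32 added. EXOC6, which is not among the 125 genes and encodes a subunit of the exocyst, the tether that receives such vesicles at the plasma membrane, read 3.58, 2.99 and 3.78 in OBGF400 and 8.88, 8.96 and 9.13 in PK15. Its difference was -5.54 ± 0.24 (SE, n = 3 each, adjusted p = 6.12e-05), or -3.65 with 32 added.

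RAB13, RAB9A, RAB28 and RAB19 were the other RAB genes called lower as deposited and on both scales. RAB13, which recycles junction proteins in epithelial cells, was at 8.76, 8.81 and 8.78 in OBGF400 and 10.07, 10.20 and 10.16 in PK15, a difference of -1.36 ± 0.04 (SE, n = 3 each, adjusted p = 2.27e-05). RAB9A, which returns cargo from late endosomes to the trans-Golgi network, was at 8.93, 9.09 and 9.02 in OBGF400 and 10.57, 10.64 and 10.40 in PK15 (-1.53 ± 0.08, SE, n = 3 each, adjusted p = 0.00012). A second RAB9A probe set lay near the floor and was not called. RAB28, known from human retinal disease and from cilia, was at 10.27, 10.32 and 10.24 in OBGF400 and 11.55, 11.61 and 11.57 in PK15 (-1.30 ± 0.03, SE, n = 3 each, adjusted p = 9.37e-06), and 2 of 2 probe sets were called lower. For RAB13, RAB9A and RAB28 every OBGF400 array lay below every PK15 array. RAB19 was at 2.13 on every OBGF400 array, the floor, and at 5.19, 5.88 and 5.37 in PK15. Its difference of -3.35, or -1.08 with 32 added, depends on where the floor was set, and its second probe set was not called.

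**Figure D2:**
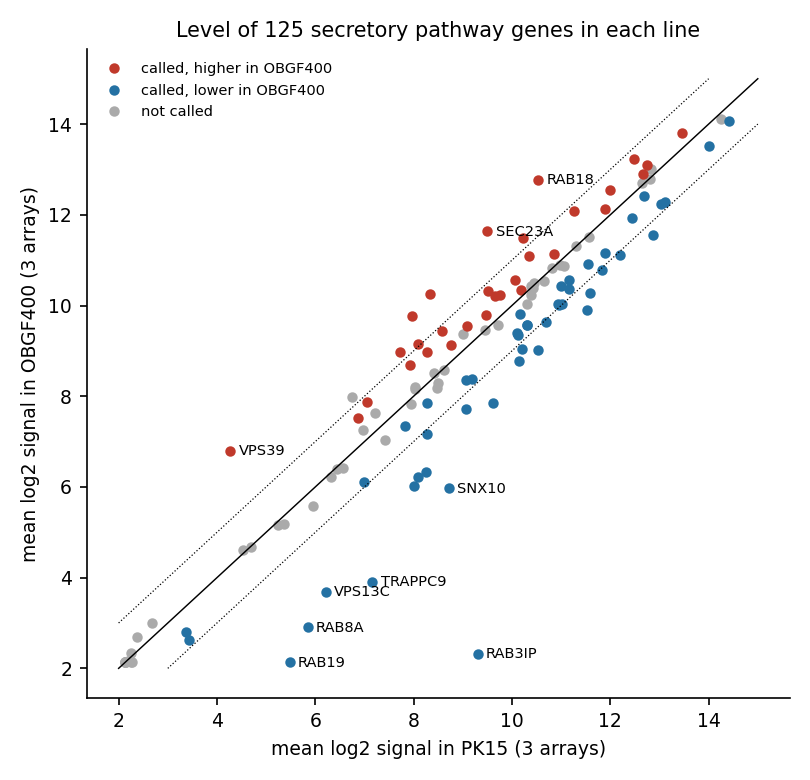
Mean log2 signal of each of the 125 genes in OBGF400 (vertical axis) against PK15 (horizontal axis), 3 arrays per line, coloured by call, with the solid line at equal signal and dotted lines at a 2-fold difference. Most genes lie between the dotted lines, and RAB3IP, RAB19, RAB8A, TRAPPC9 and VPS13C lie low in OBGF400 and well above the floor in PK15.

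Smaller differences were found for RAB genes of the early secretory pathway and of recycling. RAB1A, which directs ER-to-Golgi transport, was at 13.83, 13.77 and 13.82 in OBGF400 and 13.54, 13.45 and 13.36 in PK15, higher by 0.35 ± 0.05 (SE, n = 3 each, adjusted p = 0.00397) but -0.50 on the poly-A scale. RAB14 of the endosome and Golgi was higher by 0.80 and RAB24, linked to autophagy, by 0.85, and on the poly-A scale these became -0.05 and -0.0047. For several RAB genes the probe sets disagreed. RAB11A, a GTPase of recycling endosomes, differed by -0.50 with its brighter probe set and by 0.52 with the other, both called, and by 0.01 in their mean. RAB10, which acts in basolateral and recycling traffic, was lower by 0.27 to 2.22 with 3 probe sets and higher by 0.62 with the last. RAB2A, of the ER-Golgi intermediate compartment, was called in the fit over genes, at 0.25, but the same probe set was not called in the fit over all probe sets, where the other was called lower at -1.98, and their mean stood at -0.87. The call over genes was lost without any of OBGF400 arrays 1, 2 and 3 and PK15 arrays 2 and 3, where the difference was 0.21 to 0.28. No direction is therefore given for these 3 genes, which were singled out after their values were seen.

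None of the 4 measured RAB genes of regulated secretion was called, and 3 of them lay near the floor. RAB3A, which acts on synaptic vesicles, was at 3.20, 2.50 and 2.38 in OBGF400 and 2.37, 2.37 and 2.37 in PK15, so that 1 OBGF400 array stood apart from the others (adjusted p = 0.33). RAB27B, of secretory granules, was at the floor on all 6 arrays, and RAB26 was at 2.13 on every OBGF400 array and at 2.13, 2.44 and 2.23 in PK15. RAB3D, a granule RAB of exocrine cells, had a clear signal in both lines, 8.21, 8.27 and 8.15 in OBGF400 and 7.92, 8.16 and 8.01 in PK15, and the lines overlapped (0.18 ± 0.08, SE, n = 3 each, adjusted p = 0.11). SNAP25 and SYT1, the SNARE and the calcium sensor of synaptic release, were at the floor in both lines.

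ARF GTPases recruit coats to Golgi and surface membranes, and all 5 measured were called, 3 higher and 2 lower, turning to 3 rises and 0 falls on the hybridization scale and 0 rises and 3 falls on the poly-A scale. The call of ARF2, higher by 0.46, rests on 1 of its 2 probe sets, the other standing at -0.47 and their mean at -0.005 (adjusted p = 1). ARF4, of the Golgi, was at 13.21, 13.27 and 13.19 in OBGF400 and 12.46, 12.52 and 12.46 in PK15. Its difference of 0.74 ± 0.03 (SE, n = 3 each, adjusted p = 4.47e-05) and that of ARF1, 0.35 ± 0.05, became -0.11 and -0.50 on the poly-A scale. ARF5 was at 7.28, 7.19 and 7.05 in OBGF400 and 8.25, 8.45 and 8.14 in PK15, a difference of -1.11 ± 0.11 (SE, n = 3 each, adjusted p = 0.000844). ARF6, which acts at the plasma membrane and in endosomes, was lower as well (-0.83 ± 0.04, adjusted p = 6.74e-05), at -0.01 on the hybridization scale.

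Genes of the COPII coat, which carries cargo out of the ER, counted 10, of which 6 rose and SEC24C fell, around a median of 0.36. The hybridization scale gave 8 rises and 0 falls, and the poly-A scale 1 rise, that of SEC23A, and 4 falls. SEC23A, an inner coat subunit whose loss in humans impairs bone and collagen export, was at 11.60, 11.64 and 11.66 in OBGF400 and 9.46, 9.53 and 9.50 in PK15. The lines were far apart compared with the spread of either, with a difference of 2.14 ± 0.03 (SE, n = 3 each, adjusted p = 1.64e-06), a 4.40-fold higher signal, and its second probe set gave 2.57. Its paralog SEC23B was at 10.51, 10.63 and 10.55 in OBGF400 and 10.02, 10.02 and 10.15 in PK15, a difference of 0.50 ± 0.05 (SE, n = 3 each, adjusted p = 0.00124) that became -0.35 on the poly-A scale. The difference between the paralogs' differences was not tested.

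SEC31A, the outer coat subunit, was at 11.37, 11.59 and 11.53 in OBGF400 and 10.09, 10.29 and 10.27 in PK15. It was higher by 1.28 ± 0.09 (SE, n = 3 each, adjusted p = 0.000244), its 2 other probe sets gave 3.17 and 3.71, and on the poly-A scale it stood at 0.42. The cargo-binding SEC24 subunits went opposite ways, SEC24D being higher by 0.76 ± 0.09 (adjusted p = 0.00194) and SEC24C lower, at -0.72 ± 0.11 (adjusted p = 0.00393, SE, n = 3 each). SEC24D became -0.10 on the poly-A scale and SEC24C 0.10 on the hybridization scale, so each sign depends on the scaling, while their arrays separated the lines in opposite directions. SAR1A and SAR1B, the GTPases that start the coat, were higher by 0.75 and 0.23, and stood at -0.10 and -0.63 on the poly-A scale. SEC31B was at the floor in both lines.

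**Figure D3:**
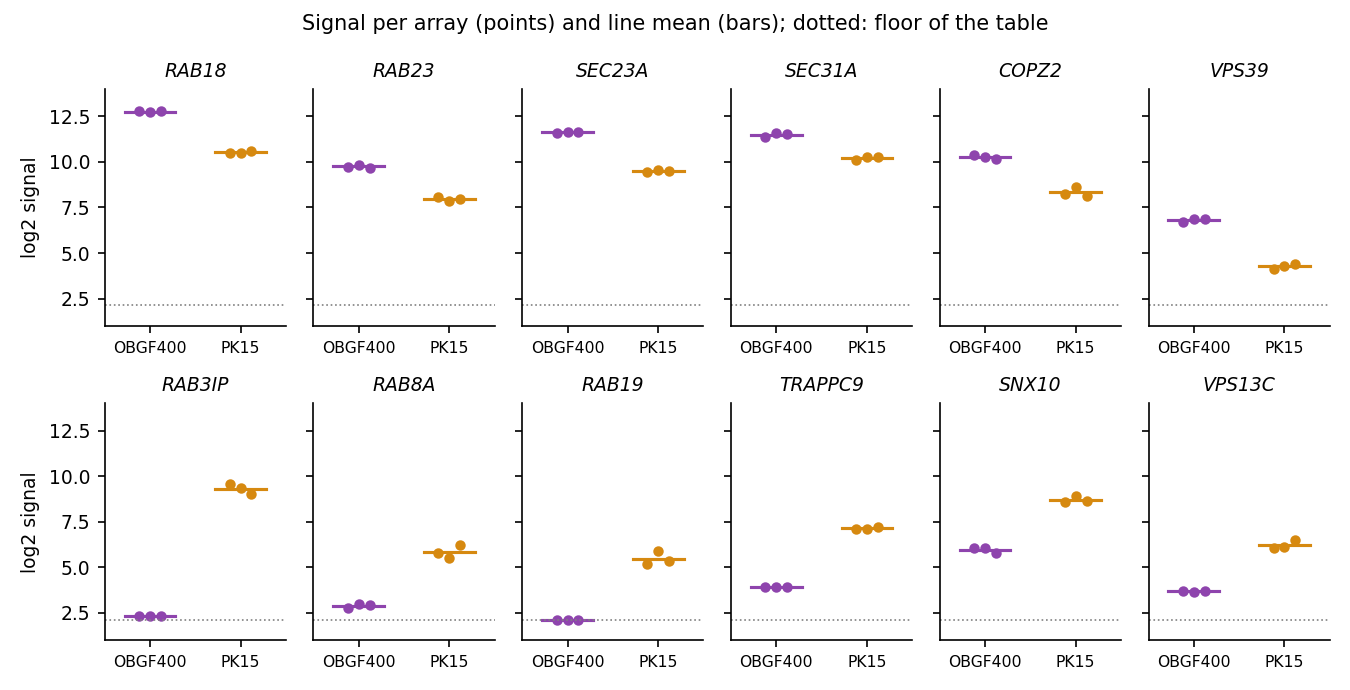
Log2 signal on each array (points) with the line mean (bars) for 12 genes, OBGF400 left and PK15 right in each panel, with the floor of 2.13 dotted. The upper row holds 6 genes higher in OBGF400 and the lower row 6 genes lower in OBGF400, and in each panel the lines do not overlap.

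COPI subunits, which coat vesicles of the Golgi, rose for 4 of 7 and fell for 0 as deposited. Among the 4 is COPA (0.16), whose probe set was not called in the fit over all probe sets. The 6 above the floor rose on the hybridization scale, and on the poly-A scale COPZ2 rose and 3 fell. COPZ2, an alternative zeta subunit, was at 10.37, 10.25 and 10.16 in OBGF400 and 8.26, 8.60 and 8.11 in PK15. It was higher by 1.93 ± 0.15 (SE, n = 3 each, adjusted p = 0.000379), a 3.82-fold higher signal, and its call held on both scales (2.76 and 1.08). COPZ1, the common zeta subunit, was not called, at -0.17 ± 0.08 (SE, n = 3 each, adjusted p = 0.146). COPB1, a beta subunit, was higher by 0.55 ± 0.04 (adjusted p = 0.000446) and at -0.31 on the poly-A scale. COPB2, a subunit that every cell uses, had its only probe set at 2.17 to 2.25 on all 6 arrays, so a signal at the floor here does not show that a transcript was missing.

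TMED proteins are cargo receptors that cycle between ER and Golgi. Of 6 measured, TMED3 rose and 3 fell, whereas 4 rose and 0 fell on the hybridization scale and 0 rose and 5 fell on the poly-A scale. TMED3 was at 9.16, 9.18 and 9.11 in OBGF400 and 8.01, 8.21 and 8.03 in PK15, a difference of 1.06 ± 0.06 (SE, n = 3 each, adjusted p = 0.000161) that stood at 0.21 on the poly-A scale. TMED5 was lower, at -0.79 ± 0.12, and TMED2 too, at -0.35 ± 0.07 (SE, n = 3 each), and both turned positive on the hybridization scale (0.04 and 0.47). TMED7 had probe sets called in both directions, from -1.11 to 1.04, and the one used here was not called.

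Of 7 genes of ER entry, 2 were higher and 2 lower, with a median difference of 0.01 that followed the scaling (0.83 and -0.85). Among the higher is SEC62 (0.29), whose probe set was not called in the fit over all probe sets. SEC63, a partner of the channel, was at 12.10, 12.04 and 12.14 in OBGF400 and 11.23, 11.18 and 11.37 in PK15, higher by 0.83 ± 0.06 (SE, n = 3 each, adjusted p = 0.000326) and -0.02 on the poly-A scale. SEC11C, a catalytic subunit of signal peptidase, was at 11.41, 11.67 and 11.61 in OBGF400 and 12.86, 12.88 and 12.88 in PK15. It was lower in OBGF400, at -1.31 ± 0.07 (SE, n = 3 each, adjusted p = 0.00014), whereas its paralog SEC11A was at 11.25, 11.37 and 11.33 in OBGF400 and 11.22, 11.37 and 11.33 in PK15 (0.01 ± 0.05). The channel subunits SEC61B and SEC61G were not called (0.05 and -0.14). SEC61A1 was called lower in the fit over genes, at -0.62, but in the fit over all probe sets that probe set was not called and both of its others were called higher, the larger at 1.51, so its direction is not settled. The call over genes was also lost when any array other than OBGF400 array 3 was left out, at -0.49 to -0.70.

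SNARE proteins drive membrane fusion, and of 13 measured 4 rose and 5 fell. On the hybridization scale 8 rose and STX4 fell, and on the poly-A scale 0 rose and 8 fell. STX4, the syntaxin of the plasma membrane, was at 6.11, 6.14 and 6.42 in OBGF400 and 8.01, 8.28 and 7.98 in PK15. It was lower in OBGF400, at -1.86 ± 0.13 (SE, n = 3 each, adjusted p = 0.000278) and kept its call on both scales, although its second probe set (-1.19) was not called. The 8 syntaxins had 2 higher and 3 lower, and the 4 VAMP genes, the vesicle-side SNAREs, 2 higher and 2 lower (-1.06 to 0.66). VAMP2, at 0.66, was not called in the fit over all probe sets. On the hybridization scale the counts became 5 rises and 1 fall for the syntaxins and 2 rises and 0 falls for the VAMP genes. VAMP8, of late endosomes and secretory granules, was lower, at -1.03 ± 0.14 (SE, n = 3 each, adjusted p = 0.0028). STX11, best known from granule release in human lymphocytes, was at 9.11, 8.91 and 8.92 in OBGF400 and 7.87, 7.84 and 7.46 in PK15, higher by 1.26 ± 0.14 (SE, n = 3 each, adjusted p = 0.00127) and by 0.40 on the poly-A scale. STX5, the SNARE of ER-to-Golgi fusion, was higher by 0.80 with 3 of 3 probe sets called, and at -0.05 on the poly-A scale.

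Sorting nexins bind endosomal phosphoinositides, and with the probe sets used here none of the 14 measured was higher: 7 fell and 7 missed the threshold. Of all genes 23.9% were higher and 36.8% lower. SNX8 was read at 4.68 on all 6 arrays, but its second, dimmer probe set was called higher by 0.83. On the hybridization scale, however, 6 of the 13 above the floor rose and 2 fell, and on the poly-A scale 0 rose and 13 fell. SNX8 counts among these 6 and these 13 by the added constant alone. SNX10, which acts with the vacuolar proton pump and is needed by osteoclasts, was at 6.07, 6.07 and 5.76 in OBGF400 and 8.57, 8.93 and 8.64 in PK15. Its difference was -2.75 ± 0.15 (SE, n = 3 each, adjusted p = 0.00012), and OBGF400 arrays 1 and 2 gave exactly the same value. SNX24 was at 6.06, 5.69 and 6.33 in OBGF400 and 8.35, 7.78 and 7.91 in PK15, lower in OBGF400 with a difference of -1.98 ± 0.24 (SE, n = 3 each, adjusted p = 0.00176). SNX10 and SNX24 were the 2 nexins that stayed lower and called on the hybridization scale (-1.92 and -1.16). SNX3, which works with retromer, was at 12.78, 12.79 and 12.78 in OBGF400 and 12.76, 12.89 and 12.75 in PK15, a difference of -0.01 ± 0.04 (SE, n = 3 each). SNX30 was at the floor in both lines.

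VPS proteins, first named from yeast vacuolar sorting mutants, counted 20 genes, of which 3 rose and 10 fell. The hybridization scale turned this to 8 rises and 4 falls, and the poly-A scale to 1 rise, that of VPS39, and 17 falls. VPS39, a subunit of the HOPS tether of late endosomes and lysosomes, was at 6.70, 6.86 and 6.85 in OBGF400 and 4.13, 4.29 and 4.39 in PK15. It was higher by 2.53 ± 0.09 (SE, n = 3 each, adjusted p = 3.35e-05), the largest rise of the 125 genes in the deposited values. That rank was lost with 32 added, where VPS39 stood at 1.49 and RAB18, SEC23A, COPZ2 and RAB23 at 1.67 to 2.20, and with probe set means (1.57), since its second, dimmer probe set was not called. The 6 measured genes of HOPS and the related CORVET tether (VPS11, VPS16, VPS18, VPS33A, VPS39 and VPS41) did not move together, with 2 higher, 1 lower and differences of -0.80 to 2.53. VPS41, higher by 0.30, was not called in the fit over all probe sets. On the hybridization scale 5 of these 6 were higher, and on the poly-A scale 5 were lower.

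The retromer core (VPS26A, VPS26B and VPS29), which recycles receptors from endosomes, had 2 genes lower and 0 higher, with differences of -1.08 to -0.19. VPS29 was at 11.16, 11.06 and 11.14 in OBGF400 and 12.25, 12.23 and 12.11 in PK15 (-1.08 ± 0.05, SE, n = 3 each, adjusted p = 8.83e-05), and stood at -0.25 on the hybridization scale. Of the nexins that shape retromer tubules (SNX1, SNX5 and SNX6) 2 were lower, with differences of -0.90 to 0.05. The ESCRT-I genes VPS28, VPS37B and VPS37D, whose complex sorts ubiquitinated cargo into multivesicular endosomes, had 2 lower and 0 higher, around a median of -0.49, and both ESCRT-II genes, VPS25 and VPS36, were lower (-0.57 and -1.75). On the hybridization scale retromer, its nexins and ESCRT-I each had 1 gene higher and 0 lower, and VPS25 stood at 0.25. VPS36 was at 7.80, 7.99 and 7.79 in OBGF400 and 9.62, 9.74 and 9.47 in PK15 (-1.75 ± 0.09, SE, n = 3 each, adjusted p = 0.000128). VPS4A, the ATPase that recycles the ESCRT-III filament, was at 7.64, 7.81 and 7.70 in OBGF400 and 8.97, 9.03 and 9.21 in PK15 (-1.35 ± 0.08, SE, n = 3 each, adjusted p = 0.000196), and a second, dimmer probe set was not called. VPS36 and VPS4A kept their calls on both scales.

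VPS13C, a protein that bridges membranes to move lipids, was at 3.70, 3.67 and 3.70 in OBGF400 and 6.07, 6.09 and 6.49 in PK15. The difference of -2.52 ± 0.13 (SE, n = 3 each, adjusted p = 0.000109), or -1.24 with 32 added, came from 1 of its 2 probe sets, the other being near the floor. VPS45, a partner of endosomal syntaxins, was at 6.73, 5.88 and 6.37 in OBGF400 and 8.33, 8.38 and 8.08 in PK15, lower in OBGF400 with a difference of -1.93 ± 0.25 (SE, n = 3 each, adjusted p = 0.00221). VPS53, VPS13D, SNX30, SEC31B and RAB27B were the 5 genes at the floor in both lines (4.0% of the 125, against 15.5% of all genes). VPS72 carries the name of the family but is known as a chromatin protein, and SEC14L1 and SEC14L2 are lipid-binding proteins. VPS72 and SEC14L1 were not called, and SEC14L2 was lower, at -0.56 near the floor, a call lost without OBGF400 array 1 or 3 or PK15 array 2 or 3 (-0.57 to -0.45).

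TRAPP complexes tether vesicles at the Golgi and activate RAB1, and none of the 10 measured subunits was higher, while 5 fell, around a median of -0.56. Among the 5 is TRAPPC12 (-0.79), which was not called in the fit over all probe sets. The shares of all genes were 23.9% higher and 36.8% lower. On the hybridization scale 5 rose, and TRAPPC9 and TRAPPC2L fell, and on the poly-A scale all 10 fell. TRAPPC9, of the TRAPPII form and mutated in a human brain disorder, was at 3.92, 3.91 and 3.91 in OBGF400 and 7.12, 7.12 and 7.23 in PK15. The difference was -3.24 ± 0.04 (SE, n = 3 each, adjusted p = 1.32e-06), or -1.89 with 32 added. OBGF400 arrays 2 and 3 gave exactly the same value, and whether it is a lower limit of this probe set was not tested. Exact repeats also occurred in OBGF400 for RAB3IP and SNX10 (arrays 1 and 2) and VPS13C (arrays 1 and 3), and were likewise not tested. TRAPPC2L was at 9.97, 9.78 and 9.97 in OBGF400 and 11.42, 11.70 and 11.44 in PK15 (-1.61 ± 0.10, SE, n = 3 each, adjusted p = 0.00022).

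**Figure D4:**
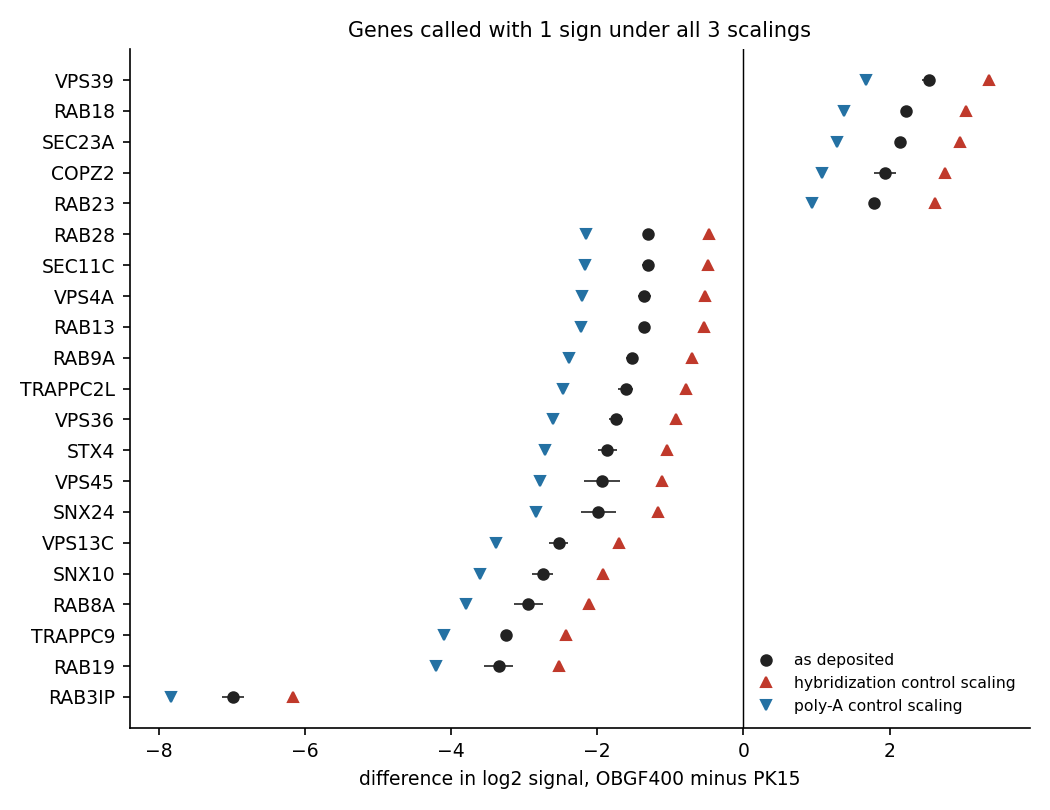
Difference in log2 signal (OBGF400 minus PK15) of the 21 genes called with 1 sign in the deposited table (circles, with SE bars), on the hybridization scale (upward triangles) and on the poly-A scale (downward triangles). All 3 symbols lie right of 0 for 5 genes and left of 0 for 16.

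Other genes of the pathway were read from 6 lists that together held 132 measured genes beside the 125. Of these, 54 rose and 41 fell (72.0%, against 60.8% of all genes). Without genes at the floor in both lines, 95 of 124 were called, against 71.9% of all genes. The hybridization scale gave 92 rises and 11 falls among the 124 above the floor and the poly-A scale 17 rises and 75 falls, and in each of the 6 lists rises outnumbered falls on the first scale and falls outnumbered rises on the second. Of 13 tethers and golgins 8 rose and 2 fell, around a median of 0.44 that became -0.41 on the poly-A scale. GOLGA2, the cis-Golgi matrix protein GM130, was at 9.92, 10.08 and 9.90 in OBGF400 and 7.99, 8.28 and 7.85 in PK15, higher by 1.93 ± 0.13 (SE, n = 3 each, adjusted p = 0.000241) with 4 of 4 probe sets called. The golgin GOLGA5 was higher by 1.71, and the Golgi tether subunit COG4 was lower, at -1.72.

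Of 37 genes of ER entry and cargo receptors outside the 125, 16 rose and 14 fell, around a median of -0.03. RRBP1, an ER protein that binds ribosomes, was at 11.05, 11.14 and 11.19 in OBGF400 and 8.75, 9.05 and 9.25 in PK15, higher by 2.11 ± 0.14 (SE, n = 3 each, adjusted p = 0.00024). The subunits of the receptor for the signal recognition particle differed in opposite directions. SRPRA was at 12.13, 12.20 and 12.11 in OBGF400 and 10.43, 10.58 and 10.66 in PK15, higher by 1.59 ± 0.07 (SE, n = 3 each, adjusted p = 6.1e-05). SRPRB was at 7.20, 7.53 and 7.40 in OBGF400 and 8.93, 9.19 and 8.98 in PK15, lower in OBGF400 with a difference of -1.66 ± 0.12 (SE, n = 3 each, adjusted p = 0.000293). SRP68, a protein of the particle itself, was lower, at -1.66. RRBP1, SRPRA, SRPRB and SRP68 kept their direction and call on both scales.

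Of 16 SNARE partners, 4 were higher and 6 lower. BET1L, a Golgi SNARE that pairs with STX5, was at 9.12, 8.96 and 8.99 in OBGF400 and 5.99, 6.44 and 6.45 in PK15, higher by 2.73 ± 0.15 (SE, n = 3 each, adjusted p = 0.000132), and TXLNA, a syntaxin-binding protein, was higher by 1.03. SNAP29 and the SNARE YKT6 were lower, at -1.47 and -1.14. Of 26 regulators of RAB, ARF and SAR1, 8 were higher and 6 lower, with ARFGAP2, which ends the ARF1 cycle at the Golgi, higher by 1.82 beside TBC1D20, and the ciliary GTPase ARL3 and RABL3 lower at -2.09 and -1.92. Of 23 clathrin, adaptor and dynamin genes, 10 were higher and 8 lower. The clathrin-binding HIP1R and PICALM were higher by 2.54 and 1.42, and the adaptor subunits AP1B1 and AP2S1 lower at -1.53 and -1.03. Of 17 ESCRT and sorting genes, 8 were higher and 5 lower, with STAM of ESCRT-0 higher by 1.94, WASHC4 of the endosomal WASH complex by 1.51, CHMP2B of ESCRT-III lower at -1.27 and WASHC1 at -0.52, a call lost without OBGF400 array 2 or 3 or PK15 array 2 or 3 (-0.51 to -0.42). Of the genes named in these lists, WASHC1 alone changed sign with the scale, to 0.30 on the hybridization scale, while TXLNA (0.17 on the poly-A scale), YKT6 and AP2S1 (-0.32 and -0.20 on the hybridization scale) kept the sign but lost the call.

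**Figure D5:**
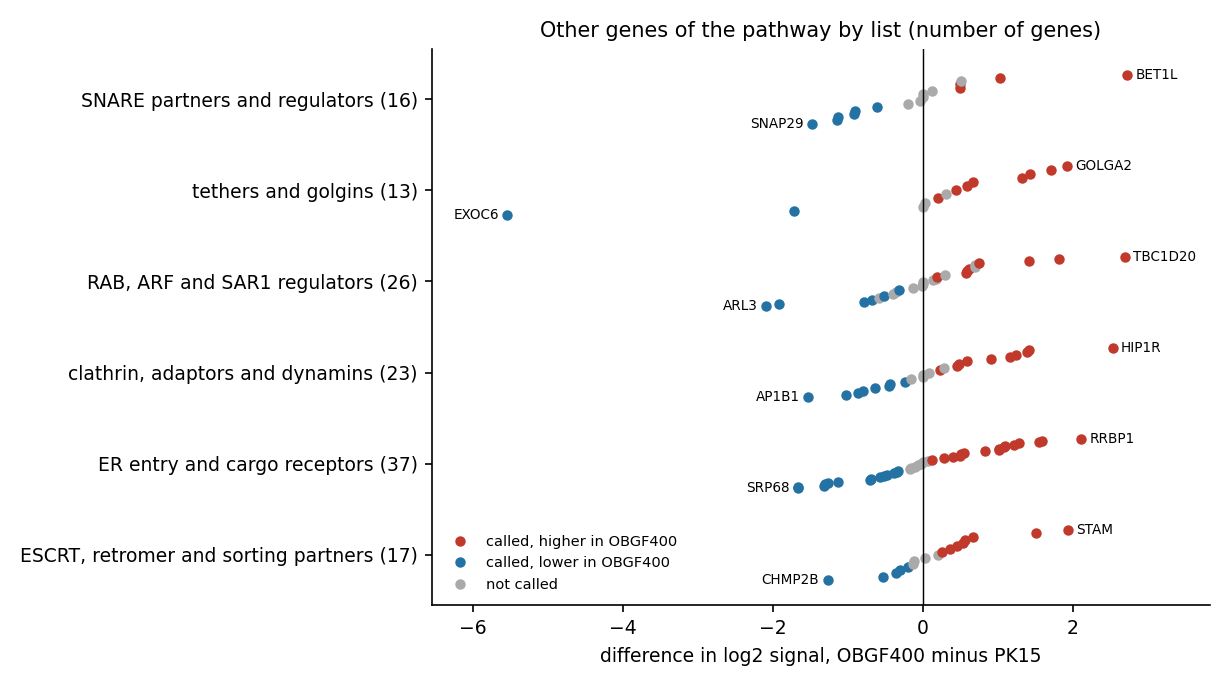
Difference in log2 signal (OBGF400 minus PK15) of 132 other genes of the pathway, 1 point per gene and list, with red for called higher in OBGF400, blue for called lower and grey for not called. Most rows spread to both sides of 0, and EXOC6 lies farthest out at -5.54.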

How the data were processed

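The deposited table holds 1 log2 signal per probe set and array; per the submitters' processing notes the authors used the package affy, with no version, and how background was corrected, probes summarised and arrays normalized is not given in the sources used here. Column means were 5.42 to 5.43, and 25.8% to 27.3% of an array's probe sets lay at its minimum. After 124 control probe sets were left out, 10069 probe sets had 1 symbol in the platform annotation, 198 several and 13732 none. Each gene was read from its brightest probe set by mean over the 6 arrays, and 50 of the 125 genes had several. By Entrez number 124 of the 125 were found in RefSeq's Sscrofa11.1 gene table, with 0 renamed. Probe sets naming several genes were left out, among them 4 for STX12 and STX7 and 1 listing RAB6A under 2 gene numbers. No sequences or coordinates were used.

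The lines were compared with limma 3.58.1 in R 4.3.3 (lmFit, eBayes, two-sided) over 6765 genes with Benjamini-Hochberg adjustment, after a test on simulated data. Probe set calls were adjusted over 23999 probe sets. With 3 arrays against 3, an exact permutation test cannot go below 0.1. Precision is limited by having 3 arrays per line, whose SD had a median of 0.098 over the 125 genes. The rule for named genes took the 12 largest rises and falls among called genes without overlap between the lines, for each role the largest rise, the largest fall and the highest mean, the smallest difference among the 10 highest means, close paralogs, up to 2 rises and falls per list, and markers. It named 50 of the 125, and 17 more were named after their values were seen, for probe sets that disagree, levels at the floor, calls under all scalings or their family. VPS25 was given as the other gene of its complex and ARF2 for its probe sets. The members, lists and control scalings were chosen with earlier results of these data known. Alternatives were quantile normalization, median centring, control scalings, 2 filters on dim genes, a trended and robust variance, array weights, an added 32, probe set means, a threshold of 0.01, a block for the replicate number and leaving out each array.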

Additional observations from a re-analysis of the deposited data

How the results depend on the processing

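The count of 77 secretory pathway genes that differed, and that of 95 of the 132 other pathway genes, stayed within 1.5 times under every alternative run. Leaving out 1 array gave 69 to 78 genes (25 to 33 higher, 44 to 46 lower), 79 to 92 other genes and a median difference of -0.12 to -0.04. Hybridization control scaling gave 82 higher and 16 lower with a median of 0.73. The dap and thr scale gave 5 higher and 102 lower (median -0.94). These shifts are set by the scaling's own constant, and the counts include the 6 genes near the floor in both lines. Outside the control scalings, the 67 named secretory genes kept direction and side of the threshold in 1006 of 1043 values, with 27 calls lost, 6 gained and 4 signs turned: RAB11A (0.01), RAB2A (-0.87) and SEC61A1 (0.66) with probe set means, and SNX3 (0.033, its range without 1 array being -0.038 to 0.033) without PK15 replicate 2. Of the 77 called genes, 68 kept the call in each fit without 1 array, and VAMP2, VPS41, SEC62, RAB2A, COPA, RAB22A, SEC14L2, SEC61A1 and TRAPPC12, the other 9 and named for that reason, lost it in at least 3 of those 6 fits.

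Hybridization control scaling turned the sign for COPB2 (0.80), COPZ1 (0.65), RAB10 (0.55), RAB11A (0.32), RAB26 (0.69), SEC14L1 (0.79), SEC14L2 (0.27), SEC24C (0.10), SEC61A1 (0.20), SEC61G (0.69), SNX22 (0.35), SNX3 (0.81), TMED2 (0.47), TMED5 (0.037), TMED7 (0.77), VPS13D (0.82), WASHC1 (0.30) and the marker NEFL (0.82). Poly-A control scaling turned it for ARF1 (-0.50), ARF4 (-0.11), COPB1 (-0.31), RAB14 (-0.053), RAB1A (-0.50), RAB24 (-0.0047), RAB2A (-0.61), RAB3A (-0.53), RAB3D (-0.68), RAB3GAP1 (-0.49), RAB3GAP2 (-0.84), SAR1A (-0.10), SAR1B (-0.63), SEC11A (-0.85), SEC23B (-0.35), SEC24D (-0.10), SEC61B (-0.81), SEC63 (-0.023), STX5 (-0.050) and the markers COL3A1 (-0.78), PTPRC (-0.85) and S100B (-0.55). For COPB2, VPS13D, NEFL and PTPRC, near the floor in both lines, this is the constant alone.

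The lines share replicate numbers, but deviations of same-numbered arrays from their line's mean correlated at 0.03, -0.01 and 0.01 over 5538 genes, so the numbers do not pair the arrays. With the replicate number as a block 68 secretory genes were called, against 77 without it. Signals near the floor limit what dim probe sets can show.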
